A study of Mus musculus with 18 samples.

Results

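MIR, L2 and CR1 elements are among the oldest transposable elements (TEs) that can still be recognised in the mouse genome, and their RNA was compared here between *Atrx* WT and *Atrx* KO mesenchymal progenitor cells (MPCs). Members were taken by name: every locus of the rRNA-depleted count table whose family field reads MIR, L2 or CR1. The rule found 202500 of 3725827 TE loci (5.44%), of which 120436 belong to MIR, 67909 to L2 and 14155 to CR1, in 23 subfamilies. MPCs are C3H/10T1/2 cells, a mouse line. The WT line received Cas9 from an empty vector without a guide, and each KO line is 1 clone made with Cas9 and 1 guide against *Atrx*, clone G7 with sg5 and clone B10 with sg6. All lines passed through the same transient transfection and sorting, and no group had a further treatment. Each line has 3 rRNA-depleted libraries, so n = 3 stands for libraries and not for lines. A clone differs from WT by its cloning history as well as by *Atrx*, and the 3 WT libraries serve both clone comparisons. Nothing says that the libraries came from separate cultures, and p-values measure the spread between these libraries, which may be technical.

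MIR elements are tRNA-derived SINEs, short elements with no protein of their own, and they depended on the machinery of L2, an autonomous LINE that shares its 3′ end with them. CR1 elements, which include the L3 subfamilies and the X-numbered LINE fragments, are LINEs of a lineage shared with birds and reptiles. All of them lost the ability to move long before rodents arose, so each copy has diverged from the others, most are short, and a sequencing read can usually be placed on a single copy. ATRX is a chromatin remodeler that works with DAXX to deposit the histone variant H3.3 and to keep H3K9me3 heterochromatin at repeats, and young endogenous retroviruses are among its known TE targets. In these cells the paper also reports ATRX on several SINE families, MIR among them, with less ATRX signal there in the KO.

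Total counts per library ran from 20135336 to 33187136, and MIR, L2 and CR1 loci together took 0.385% to 0.561% of them. *Atrx*, the targeted gene, had 5064, 5213 and 8287 counts in WT, 2900, 1092 and 1912 in sg5, and 2334, 2030 and 1909 in sg6. Its level in CPM, the count scaled to a fixed library size, was 206 ± 19.4 in WT, against 78.9 ± 25.3 in sg5 and 83.2 ± 12.2 in sg6 (SD, n = 3), with no overlap between KO and WT libraries. Of 14 mesenchymal markers, 13 passed the filter on low counts, among them *Vim*, *Col1a2* and *Prrx1*, while *Nt5e* did not pass. *Eng* and *Itgb1* were higher in both clones at an adjusted p below 0.05. *Thy1* was nearly absent from WT (0.298 CPM) and sg5 (0.0960 CPM) and present in sg6 (27.0 CPM). Of 10 markers of blood, endothelial, epithelial and neural cells, 3 passed, and the epithelial cadherin *Cdh1* was lower in both clones, with 0.147 CPM in sg5 and 0.235 in sg6 beside 2.18 in WT. WT replicate 3 stands apart: TE loci took 15.5% of its counts and 10.4% to 12.3% of those of the other 8 libraries, so results are given with and without it. The part of these markers in the differences below was not tested.

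RNA was spread thinly over the copies. Of the 202500 loci, 146458 had no count in any library, 56042 (27.7%) had at least 1 count, 6559 had at least 1 in every library and 452 had at least 10 in every library. The loci together held 1013450 counts over the 9 libraries, and the 10 and 100 loci with the most counts held 2.45% and 9.03% of them. CR1 RNA was more concentrated, with 12.8% of its counts on 10 loci and 36.9% on 100. A family's share of the counts followed its share of the copies: MIR held 59.5% of the loci and 60.3% of the counts, L2 33.5% and 32.9%, and CR1 6.99% and 6.78%. Among the 9 subfamilies with a mean WT level of at least 100 CPM, the mean count per locus summed over all libraries lay between 4.15 for L2b and 5.48 for MIR3. X7B_LINE, a rare CR1 relative with 162 copies, had 10.1 counts per locus, and 82.8% of its counts fell on 10 copies. Lengths of the loci are not used here, so these are counts per copy and not per base.

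As a share of the library, MIR, L2 and CR1 RNA did not differ between KO and WT beyond the spread between libraries. MIR loci took 0.232%, 0.269% and 0.331% of the counts of the 3 WT libraries, 0.254%, 0.240% and 0.257% in sg5 and 0.236%, 0.233% and 0.249% in sg6. The KO libraries lay inside the WT range, whose upper end is WT replicate 3. L2 loci took 0.127%, 0.151% and 0.190% in WT, 0.133%, 0.118% and 0.139% in sg5, and 0.131%, 0.128% and 0.135% in sg6. CR1 loci took 0.0257%, 0.0313% and 0.0398% in WT, 0.0262%, 0.0259% and 0.0286% in sg5, and 0.0262%, 0.0253% and 0.0287% in sg6. All 3 families thus had the same order of WT libraries and KO libraries close to the lowest WT library. As a share of the TE counts alone, the 3 families together took 3.26%, 3.65% and 3.61% in WT. They took 3.67%, 3.70% and 3.71% in sg5, and 3.37%, 3.42% and 3.40% in sg6. On this scale every sg5 library was above every WT library, narrowly so for WT replicate 2, and the sg6 libraries lay inside the WT range. MIR alone took 1.97%, 2.18% and 2.13% in WT and 2.25%, 2.31% and 2.25% in sg5. L2 and CR1 alone overlapped between sg5 and WT. These shares were not tested.

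**Figure D1:**
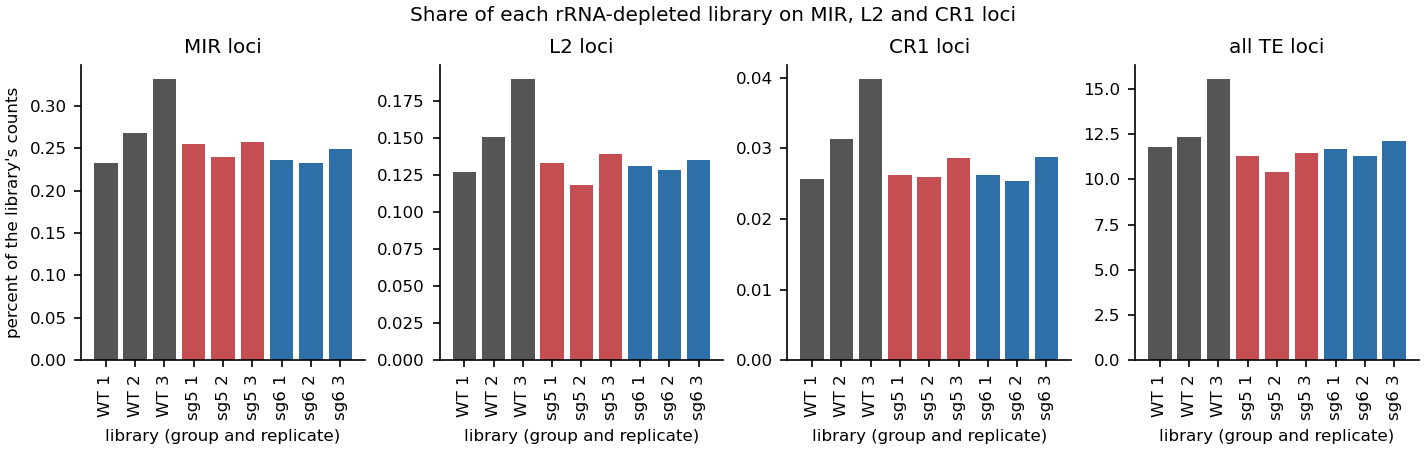
Percent of each library's counts on MIR, L2 and CR1 loci and on all TE loci, 1 bar per rRNA-depleted library (WT grey, sg5 red, sg6 blue), each panel with its own axis from 0. WT replicate 3 is the highest bar in every panel, with 15.5% of its counts on TE loci, and the 6 KO bars lie close to each other.

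Family sums were tested beside all genes with edgeR's quasi-likelihood test, with p adjusted by the Benjamini-Hochberg method over 13364 features. MIR had a log2 fold change of −0.09 in sg5 (SE 0.14, adjusted p = 0.677) and −0.14 in sg6 (SE 0.14, adjusted p = 0.573). For L2 the values were −0.20 (SE 0.15, adjusted p = 0.374) and −0.17 (SE 0.15, adjusted p = 0.522). For CR1 they were −0.20 (SE 0.16, adjusted p = 0.385) and −0.20 (SE 0.16, adjusted p = 0.470). None of the 3 families passed an adjusted p of 0.05 in either clone with edgeR or DESeq2, and 0 had an unadjusted p under 0.05, beside 1.64% of 61 TE family sums that were called lower and 0 that were called higher in each clone. Of all features in that fit, mostly genes, 9.08% were called higher and 9.29% lower in sg5, and 6.14% and 6.41% in sg6. The 95% intervals of the differences ran from −0.40 to 0.22 for MIR, from −0.54 to 0.13 for L2 and from −0.55 to 0.14 for CR1 in sg5, and from −0.45 to 0.17, −0.51 to 0.17 and −0.54 to 0.15 in sg6. Without WT replicate 3, MIR stood at 0.06 in sg5 and 0.01 in sg6, L2 at −0.04 and −0.0022, and CR1 at −0.03 and −0.02. The clones did not pass the test against each other either, with log2 differences (sg5 over sg6) of 0.05 for MIR, −0.03 for L2 and −0.0089 for CR1.

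The subfamilies gave the same picture one by one. The 4 MIR subfamilies carry most of the RNA, and MIRb, the one with the most copies (42160), had 932 ± 159 CPM in WT, against 890 ± 26.6 in sg5 and 858 ± 23.1 in sg6 (SD, n = 3). MIR, the subfamily that gives the family its name, had 872 ± 154, 821 ± 40.0 and 799 ± 44.5 CPM in WT, sg5 and sg6. MIRc had 484 ± 82.8, 459 ± 16.7 and 436 ± 17.3 CPM, and MIR3 had 380 ± 51.2, 370 ± 14.5 and 358 ± 9.30. In each of them the WT libraries spread more widely than those of either clone and overlapped both. The L2 subfamilies are sequence variants of the same LINE, and L2a was the most abundant at 559 ± 108 CPM in WT, against 491 ± 39.5 in sg5 and 504 ± 5.61 in sg6. L2 followed with 408 ± 76.5, 350 ± 38.3 and 370 ± 10.7 CPM. L2c had 276 ± 51.6, 250 ± 20.6 and 243 ± 10.7 CPM, and L2b 254 ± 49.2, 228 ± 14.4 and 228 ± 4.80. Most CR1 RNA came from L3, with 223 ± 41.1 CPM in WT, against 196 ± 13.8 in sg5 and 198 ± 11.9 in sg6, and from L3b, with 39.8 ± 9.30, 36.7 ± 1.74 and 35.2 ± 2.57. The remaining CR1 subfamilies lay at or below 11.3 CPM in WT.

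Of the 23 subfamilies, 22 passed the filter on low counts (X7D_LINE, with 48 counts in all, did not), and 0 were called in any comparison by the main edgeR fit or by DESeq2. Among all 1007 TE subfamily sums tested, 0.497% were called higher and 2.58% lower in sg5, and 0.199% and 2.09% in sg6, with 1.29% lower in both and 0.397% lower in sg5 than in sg6. Of all features in that fit, mostly genes, 8.57% rose and 8.18% fell in sg5, with 5.74% and 5.79% in sg6. The lowest adjusted p was 0.12 with edgeR, for X7B_LINE in sg5, and 0.0789 with DESeq2, also in sg5. X7B_LINE in sg5 was the only subfamily with an unadjusted p under 0.05 in either tool. X7B_LINE had 7.25, 5.92 and 13.0 CPM in WT, 5.80, 4.50 and 5.57 in sg5, and 5.85, 4.87 and 7.06 in sg6. Its log2 fold change was −0.72 (SE 0.29) in sg5 and −0.56 (SE 0.29) in sg6, and −0.31 and −0.15 without WT replicate 3, the library in which it was highest. Fold changes were negative for 20 of 22 subfamilies in each clone, and this sign also rests on 1 library: WT replicate 3 was the highest of the 9 libraries for 19 of 22 subfamilies, 1.25 to 1.36 times the mean of the other WT libraries for the 9 abundant ones. Without it, 14 of 22 were positive in sg5 and 13 of 22 in sg6, and 0 were called. For the 9 abundant subfamilies, the 95% intervals of the log2 fold changes stayed between −0.55 and 0.22 in sg5 and between −0.50 and 0.18 in sg6. In 0 of 22 subfamilies did every KO library lie beyond every WT library.

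**Figure D2:**
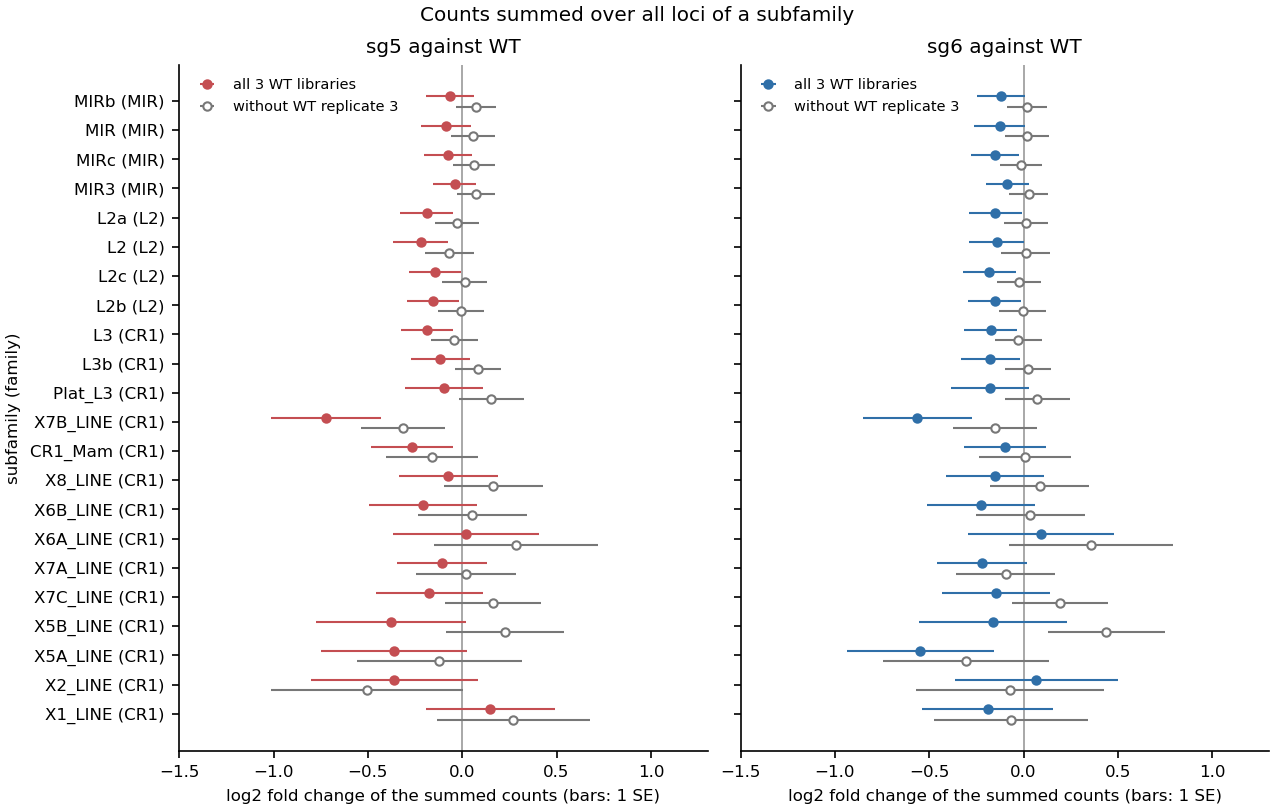
Log2 fold change of the counts summed over all loci of a subfamily, sg5 against WT (left, red) and sg6 against WT (right, blue), with bars of 1 SE; open grey symbols leave out WT replicate 3. With all libraries 20 of 22 points lie left of 0 in each clone, and without that library 14 and 13 lie right of 0.

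Single loci were tested in a fit of all 56086 features that passed the filter, 42783 of them TE loci. Of the members, 2578 passed (1521 MIR, 882 L2 and 175 CR1), which is 1.27% of the loci and 40.2% of their counts. A locus passed if enough libraries reached about 10 counts, so loci that are silent in all groups are not among them, and the other 53464 loci with counts were not tested one by one. A locus could pass through 1 high group alone, and the direction of its call then follows from the filter. The median SE of a log2 fold change was 0.52 in both clones. At an adjusted p below 0.05, 27 member loci were higher in sg5 than in WT and 12 were lower, which is 1.05% and 0.465% of those tested, beside 0.638% and 1.11% of all TE loci and 1.82% and 2.06% of all features. In sg6, 11 were higher and 10 lower (0.427% and 0.388%, beside 0.439% and 0.996% of all TE loci and 1.18% and 1.72% of all features). Calls in both clones numbered 8 higher and 3 lower (0.310% and 0.116%, beside 0.236% and 0.615% of TE loci and 0.727% and 1.16% of all features). In sg5 the share of higher calls among the members was thus above that of TE loci in general and the share of lower calls below it, a contrast that was not tested. More higher than lower calls in sg5 were not particular to the members. The hAT-Charlie loci, old DNA transposons, had 16 higher and 13 lower of 1594, and B4 loci 32 and 20 of 5110. ERVL loci had 12 and 8 of 1022, and ID loci 4 and 2 of 793. CR1 loci, which are members, had 1 higher and 2 lower of 175. L1 loci had 45 higher and 167 lower of 7911 and ERVK loci 31 higher and 94 lower of 2790. The share of higher calls was 1.17% for ERVL and 1.11% for ERVK, both above that of the members.

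**Figure D3:**
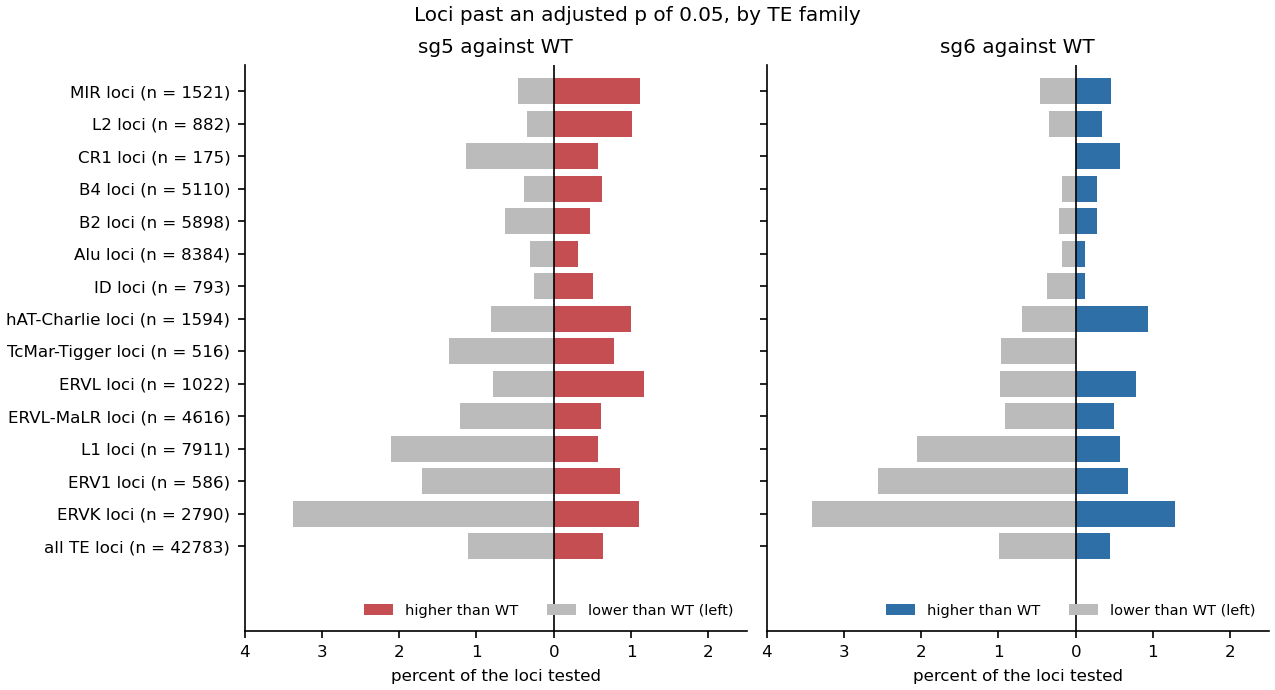
Percent of the tested loci of each TE family that passed an adjusted p of 0.05, higher than WT to the right (sg5 red, sg6 blue) and lower than WT to the left (grey), both from 0, with the number tested beside each name. MIR and L2 loci extend further right than left in sg5 (17 against 7 and 9 against 3 loci), as do B4, ID, hAT-Charlie and ERVL loci. L1, ERV1 and ERVK loci extend further left in both clones.

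These counts depend on scale and on single libraries. Scaling the libraries on TE loci alone changed the split in sg5 from 27 higher and 12 lower to 37 higher and 8 lower, and that scaling moved the median over genes to 0.18 in sg5 and 0.11 in sg6. The median log2 fold change of the tested members was −0.03 in sg5 and −0.04 in sg6, against −0.12 and −0.08 over all TE loci and 0.08 and 0.04 over genes, and it was 0.08 and 0.06 without WT replicate 3. Without WT replicate 3, 12 members were higher and 3 lower in sg5, 5 higher and 4 lower in sg6, and 4 higher and 1 lower in both. Without WT replicate 2, 14 were higher and 3 lower in sg5. Without WT replicate 1, 5 were lower in each clone. Without sg5 replicate 1, 19 were higher and 17 lower in sg6 and 10 were lower in both clones. Without sg6 replicate 1, 42 were higher in sg5, 6 in sg6 and 5 in both. Only 4 were lower in sg5 without sg5 replicate 2 or 3, and 4 were lower in sg6 without sg6 replicate 2 or 3. Without WT replicate 1 or 2, sg5 replicate 2 or 3, or sg6 replicate 2, 1 was lower in both.

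**Figure D4:**
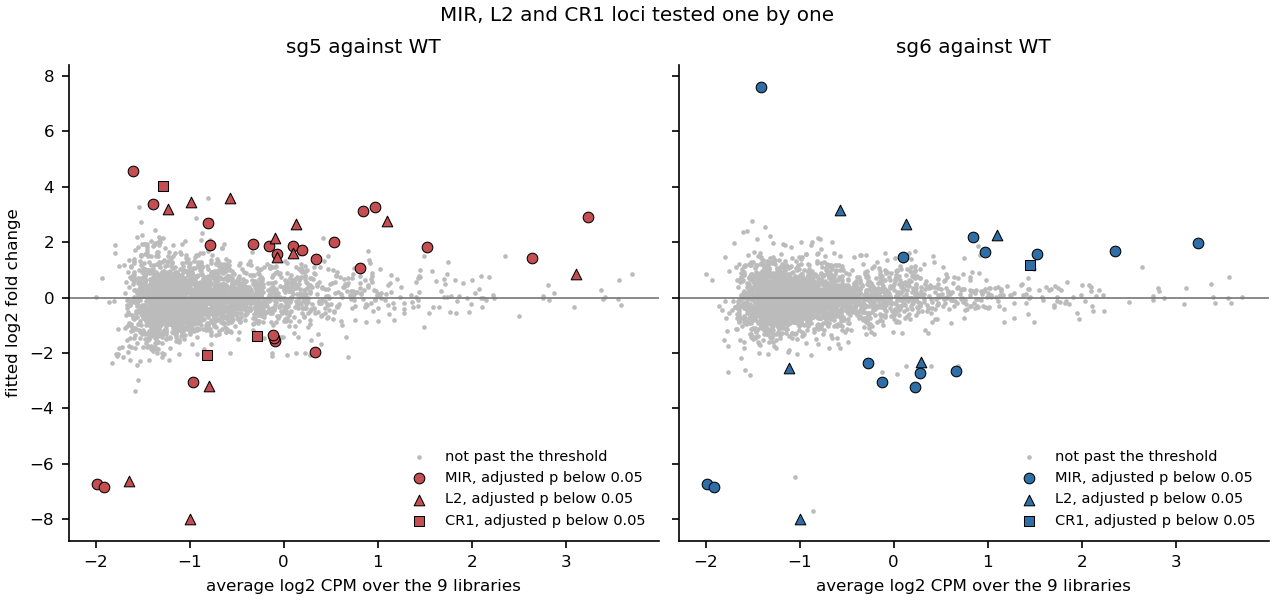
Fitted log2 fold change of the 2578 tested MIR, L2 and CR1 loci against their average log2 CPM, sg5 against WT (left) and sg6 against WT (right); grey points did not pass the threshold, and coloured circles, triangles and squares are called MIR, L2 and CR1 loci. Most loci lie within 1 log2 unit of 0, the 27 and 11 higher calls lie above the cloud, and the points near −7 and −8 are loci with no count in the clone.

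The 8 loci that rose in both clones were copies of MIR and L2, with 2 to 78 counts in a WT library. MIRc_dup1541, a MIRc copy, had the most RNA of them, with 78, 51 and 67 counts in WT, 389, 399 and 411 in sg5, and 321, 156 and 186 in sg6. That is 2.29 ± 0.855 CPM in WT, against 17.0 ± 3.80 in sg5 and 8.90 ± 3.96 in sg6 (SD, n = 3), a log2 fold change of 2.90 (SE 0.34) in sg5 and 1.97 (SE 0.33) in sg6, with adjusted p = 0.000226 and 0.00436 in edgeR's quasi-likelihood test. Its lowest KO library stood well above its highest WT library, and it passed in both clones in all 9 fits that leave out 1 library. L2c_dup8165, an L2c copy, had 15, 14 and 14 counts in WT, 112, 62 and 71 in sg5, and 87, 41 and 50 in sg6. Its log2 fold change was 2.76 (SE 0.39) in sg5 and 2.27 (SE 0.39) in sg6. L2a_dup6768, an L2a copy, had 8, 3 and 9 counts in WT, 27, 33 and 42 in sg5, and 44, 39 and 26 in sg6. Its log2 fold change was close to equal in the clones, at 2.64 (SE 0.44) in sg5 and 2.65 (SE 0.43) in sg6. L2a_dup6768 passed the filter on low counts through the KO libraries alone, so the test could find it only higher. Both L2 copies passed in both clones in all 9 fits that leave out 1 library.

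MIR_dup2829 and MIR_dup2828 carry consecutive numbers of the MIR subfamily and rose together. MIR_dup2829 had 7, 11 and 15 counts in WT, 92, 56 and 85 in sg5, and 63, 32 and 30 in sg6, a log2 fold change of 3.11 (SE 0.37) and 2.18 (SE 0.38). MIR_dup2828 had 14, 9 and 13 counts in WT, 120, 67 and 108 in sg5, and 48, 29 and 20 in sg6, a log2 fold change of 3.27 (SE 0.39) and 1.64 (SE 0.39). In both copies every sg5 library was above every WT library, and so was every sg6 library. L2c_dup12111 was the lowest of the group in WT, with 2, 3 and 2 counts there, 11, 22 and 40 in sg5, and 17, 27 and 13 in sg6. It passed the filter on low counts through the KO libraries alone, so the test could find it only higher. Its log2 fold change was 3.61 (SE 0.60) in sg5 and 3.16 (SE 0.61) in sg6, and without WT replicate 3 it did not pass in sg6 (adjusted p = 0.0890).

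The remaining pair, named after their values were seen, rose less. MIR3_dup926 had 33, 34 and 30 counts in WT, 145, 70 and 80 in sg5, and 118, 55 and 74 in sg6 (log2 fold changes 1.84 and 1.56). MIR_dup34909 had 9, 11 and 17 counts in WT, 57, 23 and 30 in sg5, and 25, 35 and 26 in sg6 (1.85 and 1.45). For all 8, the KO libraries all exceeded the WT libraries in CPM, which held for 95 of the 2578 tested members (3.69%) beside 2.29% of TE loci and 4.48% of all features. In edgeR's test of sg5 against sg6, 0 of the 8 passed (lowest adjusted p 0.0675, for MIR_dup2828). MIR_dup2828 did pass that test with DESeq2, without a filter and without sg6 replicate 1, and over all alternatives its adjusted p ran from 0.00338 to 0.380. Leaving out WT replicate 3 also ended the sg6 calls of MIR_dup2828, MIR3_dup926 and MIR_dup34909 and the sg5 call of MIR3_dup926 (adjusted p = 0.0876), with the direction kept. Other single libraries ended calls too: without WT replicate 2, sg5 replicate 2 or 3, or sg6 replicate 1, MIR_dup2828 did not pass in sg6, and over all such fits its adjusted p reached 0.204. MIR3_dup926 did not pass in sg6 without WT replicate 1 or 2 or sg6 replicate 1 or 3 (highest 0.215), and MIR_dup34909 held its sg6 call only without sg5 replicate 1 or 3 (highest 0.160). With all libraries, adjustment over TE loci alone also ended the sg6 calls of MIR_dup2828, MIR3_dup926 and MIR_dup34909 (highest adjusted p 0.0939).

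The 3 loci that fell in both clones had no count in any KO library. They passed the filter on low counts through WT alone, so the test could find them only lower. L2a_dup734, an L2a copy, had 30, 25 and 55 counts in WT and 0 in all 6 KO libraries. Set against a floor of 3 counts per library, its level fell at least 9.45-fold in sg5 and 10.1-fold in sg6 (adjusted p = 0.00122 and 0.00121), and it passed in all 9 fits that leave out 1 library. MIR_dup1197 had 14, 13 and 17 counts in WT and 0 in the KO libraries, a fall of at least 3.93-fold and 4.2-fold (adjusted p = 0.0321 and 0.0353). MIRb_dup41354 had 14, 11 and 23 counts in WT and 0 in the KO libraries, a fall of at least 4.16-fold and 4.45-fold (adjusted p = 0.0276 and 0.0304). Both of these calls were lost in each clone when any WT library or any library of that clone was left out, with an adjusted p of up to 0.181 and 0.235 for MIR_dup1197 and 0.204 and 0.268 for MIRb_dup41354 in sg5 and sg6. With all libraries, adjustment over TE loci alone also ended the calls of MIR_dup1197 and MIRb_dup41354 in each clone (highest adjusted p 0.0776). Floors cover counting error only. The KO libraries all lay below the WT libraries in 89 tested members (3.45%), beside 4.61% of TE loci and 5.56% of all features.

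**Figure D5:**
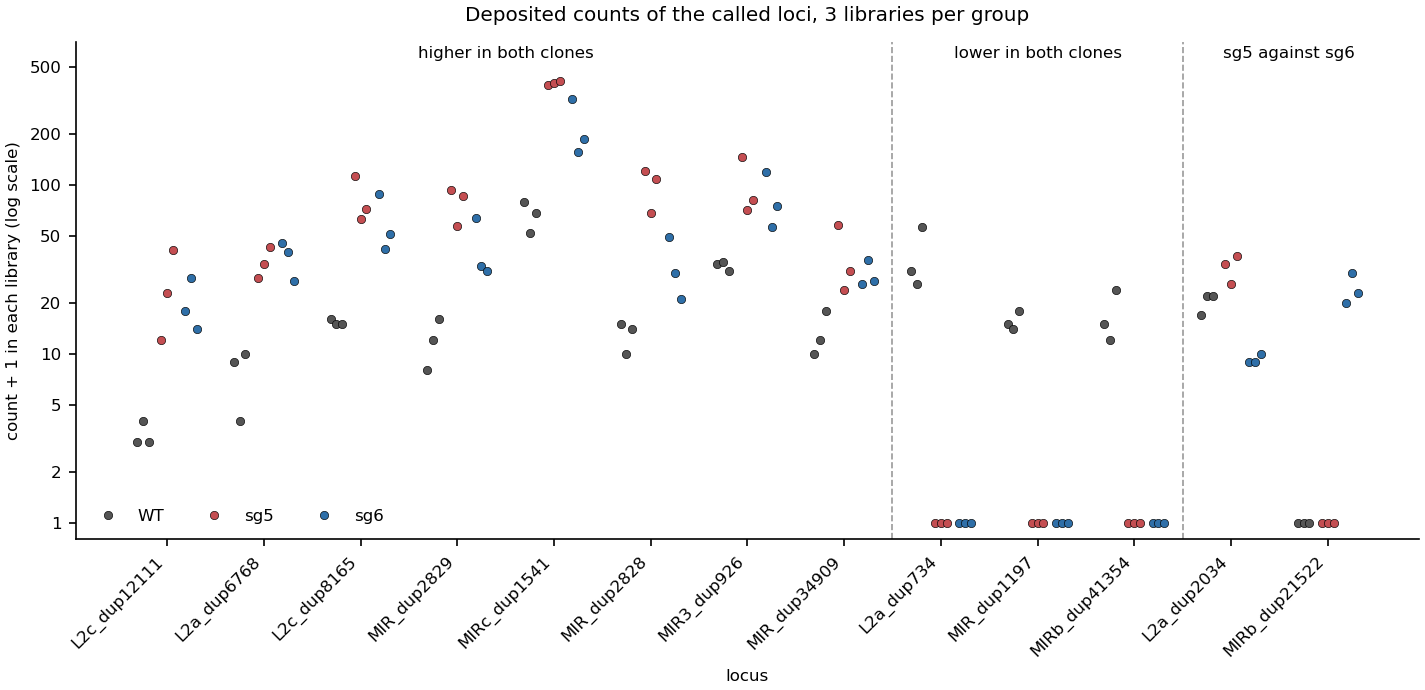
Deposited counts plus 1 on a log axis for the 8 loci higher in both clones, the 3 lower in both and the 2 that differ between sg5 and sg6, 1 point per library, 3 per group (WT grey, sg5 red, sg6 blue). Points at 1 are libraries with no count, and within each of the first 11 loci no KO point overlaps the WT points, from 2 to 78 counts in WT among the loci that rose.

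Most calls were made in 1 clone only: 28 loci in sg5 alone and 10 in sg6 alone. Only 1 of these 38 differed between the clones in the direct test. Calls in 1 clone only were not particular to the members. Of all 56086 features, 1023 were called higher and 1153 lower in sg5, and 660 and 962 in sg6. In both clones, 408 features were higher and 648 lower. The 27 loci higher in sg5 had log2 fold changes from 0.85 to 4.57 with a median of 2.01. The 12 lower ones included 4 with no count in sg5, and the rest fell by 1.36 to 3.20 on the log2 scale. In sg6, 1 of the 11 higher loci had no count in WT, and 3 of the 10 lower loci had none in sg6. Calls fell on MIR (17 higher, 7 lower in sg5, and 7 of each in sg6), on L2 (9 and 3, then 3 of each) and on CR1 (1 and 2, then 1 and 0). In sg5 these are 1.12% and 0.46% of tested MIR loci, 1.02% and 0.34% of L2 and 0.571% and 1.14% of CR1. Over all features the shares in sg5 were 1.82% and 2.06%.

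The CR1 calls were 4, each in 1 clone and each named after its values were seen. Plat_L3_dup353 had 1, 1 and 2 counts in WT, 26, 10 and 24 in sg5, and 9, 0 and 5 in sg6. It rose in sg5 (log2 fold change 4.04, SE 0.87, adjusted p = 0.0180), and in sg6 its value was 1.98 (adjusted p = 0.438). Plat_L3_dup353 passed the filter on low counts through sg5 alone, so the test could find it only higher there. L3_dup7228 had 41, 40 and 55 counts in WT, 60, 69 and 87 in sg5, and 79, 86 and 95 in sg6. It rose in sg6 (1.17, SE 0.27, adjusted p = 0.0339), and its value in sg5 was 0.98 (adjusted p = 0.0673), so the clones lie on either side of the threshold with similar folds. L3b_dup1233 fell in sg5, with 27, 26 and 19 counts in WT, 2, 5 and 7 in sg5 and 9, 13 and 10 in sg6 (−2.08, SE 0.52, adjusted p = 0.0389). L3_dup9595 fell in sg5 with 27, 25 and 45 counts in WT, 10, 7 and 13 in sg5 and 19, 23 and 14 in sg6 (−1.38, SE 0.35, adjusted p = 0.0442), a call that held in 0 of the 9 fits that leave out 1 library, where its adjusted p reached 0.174. With all libraries, the L3_dup9595 call was also lost with DESeq2 (adjusted p = 0.0894), median-of-ratios factors, no filter, 2 groups per fit, TMM factors from TE loci and adjustment over TE loci alone (highest 0.709). L3_dup7228 held only without 1 of the sg5 libraries (highest 0.162), L3b_dup1233 only without WT replicate 3 or sg6 replicate 1 (highest 0.145), and Plat_L3_dup353 only without sg5 replicate 2 or 1 of the sg6 libraries (highest 0.0823).

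Few loci differed between the clones themselves: 1 was higher in sg5 than in sg6 and 1 was lower, each 0.0388% of those tested, beside 0.103% and 0.0514% of TE loci and 0.216% and 0.275% of all features. L2a_dup2034 had 16, 21 and 21 counts in WT, 33, 25 and 37 in sg5, and 8, 8 and 9 in sg6. The 3 groups did not overlap, with sg5 above WT and sg6 below it, and neither clone passed against WT (log2 fold changes 0.99 and −0.98, adjusted p = 0.112 and 0.225). The difference between the clones was 1.97 (SE 0.35, adjusted p = 0.0192), and it did not pass without any 1 of sg5 replicates 2 and 3 and the 3 sg6 libraries (highest adjusted p 0.133), without a filter (0.130) or with 2 groups per fit (0.0594). MIRb_dup21522 had 0 counts in all WT and sg5 libraries and 19, 29 and 22 in sg6, so it passed the filter on low counts through sg6 alone. It was at least 8.8-fold higher in sg6 than in WT and at least 7.18-fold higher than in sg5 (adjusted p = 0.00358 and 0.0179), the latter lost without sg6 replicate 2 or 3 (highest adjusted p 0.168).

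Most of the copies with the most RNA did not pass in either clone. The highest MIR copies by mean level were MIRb_dup2847 (10.3 ± 4.99 CPM in WT, against 18.3 ± 4.0 in sg5 and 10.4 ± 1.61 in sg6), MIR_dup34074 (13.3 ± 3.52, 11.2 ± 1.23 and 11.5 ± 0.378) and MIRb_dup28517 (8.38 ± 2.39, 13.0 ± 2.42 and 14.0 ± 4.82). None of these passed in either clone with all libraries in the main fit, and MIRb_dup2847 passed in sg5 without WT replicate 1. The highest L2 copies were L2_dup6418 (10.6 ± 0.731, 10.3 ± 1.03 and 10.6 ± 0.667 CPM), L2c_dup7591 and L2a_dup11085 (6.62 ± 1.64, 6.54 ± 0.611 and 6.94 ± 0.342). L2c_dup7591 was called, with 157, 151 and 261 counts in WT, 259, 198 and 374 in sg5, and 198, 206 and 209 in sg6. It rose in sg5 (0.85, SE 0.20, adjusted p = 0.0342) and stood at 0.36 in sg6 (adjusted p = 0.524), and the sg5 call was lost without any 1 of the WT libraries, sg5 replicates 2 and 3 and sg6 replicate 3 (highest adjusted p 0.163). The highest CR1 copies were all L3 copies, L3_dup8399 (9.53 ± 1.70, 7.63 ± 0.766 and 8.06 ± 0.850 CPM), L3_dup7777 (4.40 ± 0.435, 4.08 ± 1.55 and 4.59 ± 0.507) and L3_dup8234 (3.96 ± 1.25, 3.90 ± 1.23 and 4.74 ± 1.87), and none passed. Of these 9 copies, the log2 fold changes of the 8 that did not pass lay between −0.32 and 0.83, and several changed sign with the scaling or when a library was left out.

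Copies with neighbouring numbers moved alike. The table numbers the copies of each subfamily, and 420 pairs of tested members had numbers that differ by 1. In 72.1% of these pairs both copies had the same direction in sg5 and in 65.5% in sg6, and the correlation of their log2 fold changes across pairs was 0.63 and 0.57. Among 1880 pairs whose numbers differ by 50 to 100, the shares were 50.7% and 49.6% and the correlations 0.07 and 0.05. These are descriptions across pairs of loci in the same libraries, and loci are not independent replicates. Besides MIR_dup2828 and MIR_dup2829, called pairs were MIR3_dup10271 and MIR3_dup10272 and MIR_dup13837 and MIR_dup13838, both named after their values were seen. MIR3_dup10271 had 0, 1 and 1 counts in WT, 26, 9 and 12 in sg5, and 6, 3 and 1 in sg6, and MIR3_dup10272 had 1, 0 and 5, then 29, 8 and 16, then 8, 3 and 2. Both rose in sg5, with log2 fold changes of 4.57 and 3.36. Both passed the filter on low counts through sg5 alone, so the test could find them only higher there. Without sg5 replicate 1 both calls ended (adjusted p = 0.125 and 0.215), MIR3_dup10271 also lost its call without WT replicate 3, and MIR3_dup10272 without WT replicate 1 or 2 or sg5 replicate 3. MIR_dup13837 had 24, 54 and 92 counts in WT, 25, 3 and 6 in sg5, and 7, 3 and 6 in sg6, and MIR_dup13838 had 83, 46 and 138, then 49, 14 and 18, then 13, 11 and 11. Both fell in sg6, with log2 fold changes of −3.06 and −2.65, and in sg5 they stood at −1.99 and −1.43 (adjusted p = 0.0677 and 0.0797). The sg6 call of MIR_dup13837 ended without WT replicate 3 or sg6 replicate 2 or 3 (highest adjusted p 0.0851). Whether a read comes from a transcript that starts in the element or from a longer transcript across it cannot be told apart in these counts, since positions and strand of the loci are not used here.

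Among genes of TE silencing, *Tasor* rose in both clones, *Mphosph8* rose and *Cbx1* fell in sg5, and *Atrx* itself was lower in both. *Atrx* was lower by a log2 fold change of −1.39 (SE 0.21) in sg5 and −1.31 (SE 0.20) in sg6, with adjusted p = 0.00138 and 0.00227. Of 25 further genes that were tested, 2 were higher and 1 lower in sg5, and 1 was higher and 0 lower in sg6, beside 5.64% higher and 5.1% lower of all genes in sg5 and 3.55% and 4.03% in sg6. *Tasor*, a subunit of the HUSH complex that silences LINE elements, rose in both, from a WT level of 30.9 ± 2.32 CPM to 55.8 ± 5.53 in sg5, and to 53.8 ± 3.25 in sg6 (log2 fold changes 0.85 and 0.80, adjusted p = 0.00352 and 0.00637). *Mphosph8*, the HUSH subunit that binds H3K9me3, rose in sg5 from 12.1 ± 1.65 to 27.6 ± 6.25 CPM (1.19, adjusted p = 0.00469) and had 18.8 ± 3.87 CPM in sg6 (adjusted p = 0.160). *Cbx1*, which encodes the HP1 protein HP1β, fell in sg5 from 122 ± 13.9 to 74.8 ± 4.34 CPM (−0.70, adjusted p = 0.00963) and had 85.4 ± 2.45 CPM in sg6 (adjusted p = 0.0694). *Daxx*, *Setdb1*, which writes H3K9me3, and *Trim28*, which recruits it, did not pass, with log2 fold changes between −0.09 and 0.07.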

How the data were processed

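RNA of 9 rRNA-depleted libraries was analysed (WT, sg5 and sg6, 3 each), grouped by the sample labels. The authors aligned reads to mm10 with STAR, keeping reads with several alignments, and the deposited values are raw read counts from TElocal, per gene and per TE copy. How TElocal assigned reads with several alignments, its strand setting and its TE annotation are not given in the sources used here. The table names TE loci without coordinates, and 24045 of 24100 genes matched a symbol in RefSeq's gene table (GRCm38.p6). All 9 count columns were used. A deposited count table of the polyA libraries holds genes alone and was not used.

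Counts were tested with edgeR 4.0.16 in R 4.3.3: filterByExpr with its defaults (a count of 10, a total of 15, large groups of 10 and a proportion of 0.7), TMM factors, and the quasi-likelihood test in a single fit of 3 groups, with Benjamini-Hochberg adjustment over all features and calls at an adjusted p below 0.05. Loci, subfamily sums and family sums were each fitted beside all genes. CPM are scaled by TMM. SEs are the fold change over the root of F. A fold against a group at 0 is a bound against 3 counts per library. Alternatives were DESeq2 1.42.0, median-of-ratios factors, other filters, 2-group fits, a replicate block, TMM factors from genes or TE features alone, adjustment over TE loci alone, a fold threshold, thinning to 20135336 counts, other sums, and leaving out each library. The fits were tested on simulated data. Replicate libraries differed by more than sampling noise. Plots used Python 3.11.15 and matplotlib 3.10.9.

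Named loci are those called in both clones without overlap (the 6 with the largest smaller fold each way), the 3 extreme loci each way between the clones and the 3 highest of each family; others are said to be named after their values were seen. Members, lists and rules were chosen with earlier results of these data known. *Tasor* was also listed under its older symbol Fam208a and counted once.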

Additional observations from a re-analysis of the deposited data

Results flagged for a closer look

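The 2 KO clones differed from each other, by the test of sg5 against sg6, at 2 MIR, L2 or CR1 loci, and with 1 clone per guide a difference between clones and one in the effect of the KO cannot be told apart. L2a_dup2034 stood 0.99 above WT in sg5 and 0.98 below it in sg6 (−0.98), a difference of 1.97 on the log2 scale (SE 0.35, edgeR adjusted p = 0.0192). That call was lost without a filter, with 2 groups per fit, with adjustment over TE loci alone and in 5 of the 9 fits that leave out 1 library. MIRb_dup21522 had 19, 29 and 22 counts in sg6 and 0 in WT and sg5, at least 7.18-fold more in sg6 than in sg5 (edgeR adjusted p = 0.0179), a call lost without sg6 replicate 2 or 3 and with adjustment over TE loci alone. This locus passed the filter on low counts through sg6 alone.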

How the results depend on the processing

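The loci called higher and lower numbered 27 and 12 in sg5, 11 and 10 in sg6, 8 and 3 in both, and 1 and 1 between the clones (sg5 above and below sg6). With DESeq2, 47 were higher in sg5, 21 in sg6 and 17 in both, 7 were lower in both, and 3 were higher and 2 lower between the clones. Without a filter, 43 were higher and 23 lower in sg5, 26 lower in sg6, 12 lower in both, and 3 and 2 between the clones. With at least 10 counts in every library, which leaves 452 loci and fewer low ones, 17 were higher and 2 lower in sg5, 1 lower in sg6, 0 lower in both and 0 lower in sg5 than in sg6. With 2 groups per fit, 16 were lower in sg6, 5 lower in both and 0 higher in sg5 than in sg6. Adjusted over TE loci alone, 13 were higher and 5 lower in sg5, 6 and 4 in sg6, 5 and 1 in both, and 0 and 0 between the clones. Thinned libraries left 1 lower in both and 2 higher in sg5 than in sg6. Median-of-ratios factors, TMM factors from genes or TE loci alone and a log2 fold change beyond 1 kept every count of loci within 1.5 times. Leaving out 1 library gave 12 to 42 higher and 3 to 15 lower in sg5, 5 to 19 and 4 to 17 in sg6, 4 to 12 and 1 to 10 in both, and 0 to 2 and 0 to 1 between the clones. The cause of these moves was not tested.

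Replicate numbers pair no libraries by label. In the locus fit, 4 of 9 same-number pairs had correlated deviations over 0.1 (0.055 to 0.268). In the subfamily and family fits 8 of 9 did (up to 0.630 and 0.640, lowest −0.156 and −0.224), so not every pair passed. In the locus fit a library correlated best with its own number in 13 of 18 comparisons with another group. With the replicate number as a block, 48 loci were higher and 20 lower in sg5, 20 higher in sg6, 16 higher and 7 lower in both and 3 higher in sg5 than in sg6, and 1 subfamily, X7B_LINE, was lower in sg5 (adjusted p = 0.0423). Of the 3 loci lower in both, the block ended the calls of MIR_dup1197 (adjusted p = 0.0593 in sg5 and 0.0751 in sg6) and MIRb_dup41354 (0.0503 and 0.0639), and MIR_dup2828 passed between the clones. Among the copies with the most RNA, MIRb_dup28517 passed with the block (adjusted p = 0.0316 in sg5 and 0.0241 in sg6), and MIRb_dup2847 passed in sg5. The block turned no family sum.

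Family sums stayed short of the threshold in all alternatives. TMM factors from TE sums alone turned MIR to 0.11 in sg5 and 0.036 in sg6, L2 to 0.0021 and 0.010, and CR1 to 0.0053 in sg5 and 0.019 between the clones. Sums over tested loci turned MIR to 0.049 in sg5, and sums without the 10 highest loci turned CR1 to 0.0035 between the clones. Leaving out 1 library gave, for MIR, −0.20 to 0.057 in sg5, −0.25 to 0.010 in sg6 and 0.0099 to 0.080 between the clones, for L2 −0.33 to −0.036, −0.30 to −0.0022 and −0.10 to 0.033, and for CR1 −0.34 to −0.025, −0.33 to −0.016 and −0.075 to 0.046. For 20 of 22 subfamilies the sign in sg5 and sg6 was negative, and with TMM factors from TE sums alone 17 and 18 were positive.

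Signs turned only among highly expressed loci that did not pass. In sg5, L2_dup6418 turned to 0.0078 with DESeq2, 0.0073 with median-of-ratios factors and 0.064 with TMM from TE loci, L2a_dup11085 to 0.034, 0.032, 0.016 without a filter and 0.080 with TMM from TE loci, and L3_dup8234 to 0.035, 0.035, 0.012 and 0.094. In sg6, L2_dup6418 turned to −0.021 with at least 10 counts in every library, −0.029 with TMM from genes and −0.018 after thinning. Leaving out 1 library gave L2_dup6418 −0.083 to 0.071 in sg5 and −0.029 to 0.12 in sg6, L2a_dup11085 −0.13 to 0.25 and −0.043 to 0.33, L3_dup7777 −0.37 to 0.19 in sg5, L3_dup8234 −0.29 to 0.24 and −0.058 to 0.52, and in sg6 MIRb_dup2847 −0.26 to 0.51 and MIR_dup34074 −0.29 to 0.021. Named called values kept their direction in every alternative. They kept the call in 273 fits and lost it in 36 with all libraries, and kept it in 214 and lost it in 92 with a library left out. With all libraries, no filter ended the calls of L2c_dup7591 (adjusted p = 0.183), L3b_dup1233 (0.147) and L3_dup7228 (0.243) and the sg6 call of MIR_dup34909 (0.384). With 2 groups per fit L2c_dup7591, L3b_dup1233 and MIR_dup2828 in sg6 were lost, with TMM from genes L2c_dup7591, MIR_dup34909 in sg6 and MIR3_dup10272, and with TMM from TE loci L3b_dup1233. Adjustment over TE loci alone ended the calls of MIR_dup1197 (adjusted p = 0.0776 in sg5 and 0.0738 in sg6) and MIRb_dup41354 (0.0678 and 0.0644). The sg6 calls of MIR_dup2828 (0.0783), MIR3_dup926 (0.077) and MIR_dup34909 (0.0939) ended with it too. So did those of L2c_dup7591, L3_dup7228, L3b_dup1233 and MIR3_dup10272.

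Depth limits the loci: 53464 loci with counts were not tested, and the median SE was 0.52, against 0.20 at L2c_dup7591, one of the most abundant copies.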
